A study of Mus musculus with 36 samples.

Results

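The Hox genes of the Hoxa, Hoxb, Hoxc and Hoxd clusters were followed through reprogramming of mouse fibroblasts, in wild-type (Wt) cells and in cells knocked out (KO) for the zinc finger gene Zfp266. Members were all genes whose symbol is Hoxa, Hoxb, Hoxc or Hoxd followed by a number, which gave 38 of the 21442 genes in the count table. The annotation of GRCm38 (GENCODE M21) holds 39 such genes, and Hoxb1 was not among the rows analysed here. The 11 Hoxa genes lie on the minus strand of chromosome 6 (chr6:52155590-52260880), and the other clusters lie on plus strands, with 9 Hoxb genes on chromosome 11 (chr11:96194316-96354012), 9 Hoxc genes on chromosome 15 (chr15:102921103-103036852) and 9 Hoxd genes on chromosome 2 (chr2:74668310-74765142).

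Hox genes encode homeodomain transcription factors that give cells of the embryo their position along the head-to-tail axis and along the limbs. Within a cluster the genes stand in the order in which they are used. Low paralogue numbers act in the anterior body, high numbers in the posterior trunk, the distal limb and the genital region, and genes with the same number in different clusters are paralogues. Cultured fibroblasts keep the Hox pattern of the place they came from, while in pluripotent cells the clusters are held silent by Polycomb complexes.

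Polyadenylated RNA was sequenced from 36 bulk libraries, in 12 groups of 3 libraries: 6 stages, each with Wt and KO cells. Mouse embryonic fibroblasts (MEFs) were passage 2 cells, labelled as strain 129, from E12.5 chimeric embryos. The chimeras were made with an ES cell line (Cas9 TNG MKOS) that carries Cas9, a Nanog-GFP reporter and a doxycycline-inducible MKOS reprogramming cassette with mOrange. Their host embryos came from B6CBAF1 females, and the share of host cells in the MEF libraries is not given. The MEFs were harvested unsorted 96 hours after lentiviral delivery of a non-targeting (Wt) or a Zfp266 guide (KO). For days 3, 5 and 7 of reprogramming (D3, D5 and D7), such MEFs were mixed with 129 Wt MEFs that lack the cassette, infected 24 hours before induction, kept in 300 ng/ml doxycycline with vitamin C, and sorted for mOrange, which enriches for cells that express the transgene. KO MEFs and KO reprogramming cells were edited populations and not clones. The induced pluripotent stem cells (iPS) were 3 Wt and 3 KO clones from cells sorted for Nanog-GFP at day 15. They were grown without doxycycline in puromycin, which selects for the Nanog reporter. The embryonic stem cells (ESC) were 3 KO clones and 3 samples of their 1 parental line. The study calls the reprogramming libraries independent samples, without saying whether they came from separate cultures or MEF preparations, and nothing says this of the MEF libraries, so p-values measure the spread between these samples, which may be technical. Total counts ran from 19224103 to 39610939 per library, so 3 reads, the most that a count of 0 allows at 95% confidence, were 2.31 to 5.22 normalised counts. The labelled cell types carried their markers: the summed level of 8 fibroblast genes was 419587 to 435126 normalised counts in Wt MEFs and 122 to 142 in Wt ESC, and that of 8 pluripotency genes 57.6 to 71.3 and 125983 to 130834. Zfp266 itself was lower in KO than in Wt cells at FDR < 0.05 in iPS only, of 6 stages (log2FC -0.39, DESeq2 FDR 9.95e-06), and was higher at D3 (log2FC 0.32, DESeq2 FDR 0.00883). Counts over a whole gene do not show small edits, so these levels are no check of the genotype. The paper made its own checks. It reports mostly out-of-frame insertions and deletions in Zfp266 cDNA of the KO MEFs, and genotyping of the KO iPS and ESC clones. MEF KO replicate 3 stood apart from the other MEF libraries in several Hox genes, with 545 normalised counts of Hoxa9 where the other 5 held 262 to 322, 517 of Hoxa11 where they held 797 to 887, and 24.4 of Hoxc13 where they held 62.6 to 114.

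All Hox genes share the homeobox, so reads of paralogues could in principle be confused. Over whole transcripts, none of the 540 pairs of members from different clusters shared a stretch of 75 bases, the read length, and the longest shared stretch was 52 bases. Overlapping annotation is the larger ambiguity: Hoxd3 shares 62.3% of its exon bases and Hoxd4 52.3% with genes on the same strand, and Hoxc5 and Hoxc10 overlap in part. Hoxb3 shares 52.9% and Hoxa11 35% with antisense genes, whose reads cannot be told apart unless the counting used the strand.

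Promoter windows are shown for members that took different courses from MEFs to D3: Hoxb8, which had the lowest log2FC, Hoxa9, which rose, and Hoxd13, whose change did not pass. Each window is the 250 bases before a RefSeq start site (GRCm38.p6), 5′ to 3′ on the gene's strand, with CG dinucleotides in capitals.
Hoxb8 (chr11:96281655-96281904, plus strand): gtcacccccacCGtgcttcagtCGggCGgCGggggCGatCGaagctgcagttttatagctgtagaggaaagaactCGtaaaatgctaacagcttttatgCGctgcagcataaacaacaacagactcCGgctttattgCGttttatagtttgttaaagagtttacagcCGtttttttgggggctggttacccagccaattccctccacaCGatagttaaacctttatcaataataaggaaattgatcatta
Hoxa9 (chr6:52227371-52227620, minus strand): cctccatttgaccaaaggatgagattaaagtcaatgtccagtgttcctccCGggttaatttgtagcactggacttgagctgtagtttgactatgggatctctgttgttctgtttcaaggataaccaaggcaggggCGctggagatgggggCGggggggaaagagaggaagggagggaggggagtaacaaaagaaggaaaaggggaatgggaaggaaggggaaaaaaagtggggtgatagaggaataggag
Hoxd13 (chr2:74667975-74668224, plus strand): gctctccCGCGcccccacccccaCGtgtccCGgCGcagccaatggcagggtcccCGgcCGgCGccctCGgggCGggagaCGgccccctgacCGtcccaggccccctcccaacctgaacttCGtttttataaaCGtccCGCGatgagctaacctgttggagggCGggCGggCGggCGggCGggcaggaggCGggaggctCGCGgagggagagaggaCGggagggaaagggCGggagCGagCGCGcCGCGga

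The Hoxd13 window holds 31 CG dinucleotides, more than 94.8% of the 32851 promoter windows of the same length, and the letters TATAAA, which occur in 7.59% of all windows. The Hoxb8 window holds 12 and the Hoxa9 window 3; the latter lies within the longer annotated Hoxa9 gene but in none of its exons. Windows were at hand for 21 members (23 windows), whose median was 13 CG dinucleotides against 6 over all windows.

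Wt MEFs held transcripts of all 4 clusters, from low to high paralogue numbers. In Wt MEFs 35 of 38 members had a mean of at least 10 normalised counts, the exceptions being Hoxb13, Hoxd1 and Hoxd3. The 38 genes summed to 11639.7 ± 92.1 normalised counts (mean ± SD, n = 3). Per kb of exon the sums were 1647 ± 34 for Hoxa, 1378 ± 31.4 for Hoxb, 983 ± 19.7 for Hoxc and 537 ± 32.8 for Hoxd. On the same scale the highest member of each cluster was Hoxa11, which shapes the forearm, with 371 ± 20.4 normalised counts per kb, Hoxb9 with 284 ± 21.4, Hoxc10 with 263 ± 23.1 and the digit gene Hoxd13 with 248 ± 25. Hoxa11 and Hoxa10 (358 ± 30.7 per kb) did not differ beyond their spread. The MEF libraries therefore held transcripts of anterior, trunk and distal limb genes together, from cells that were not separated by body region.

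**Figure D1:**
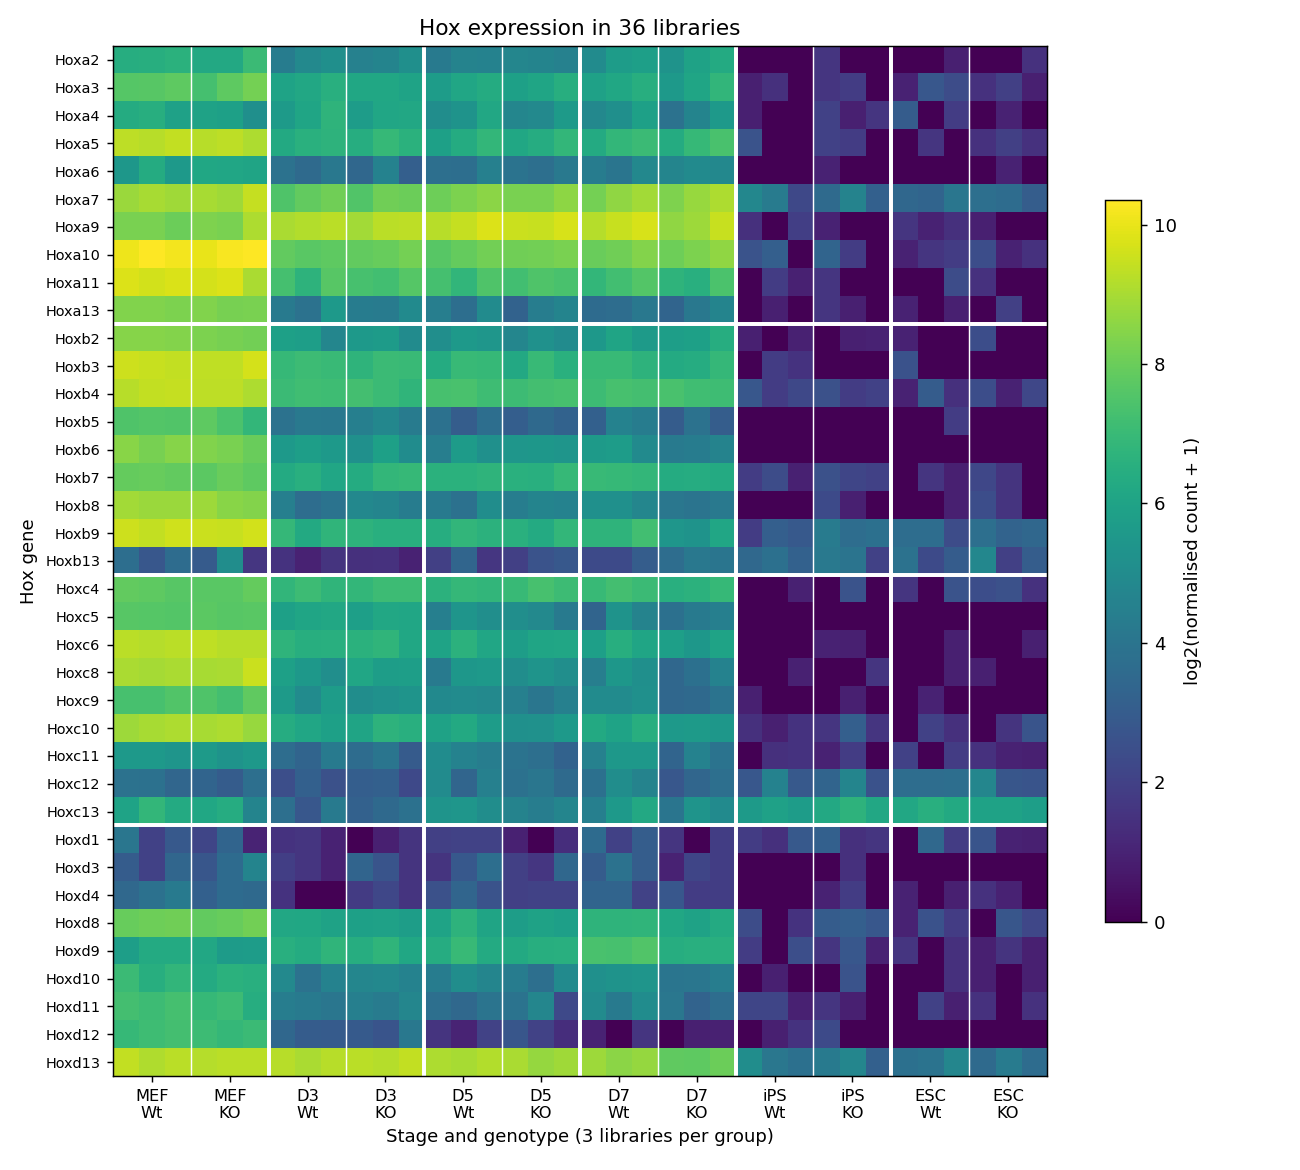
Level of each of 37 Hox genes (rows, by cluster and paralogue number) in each of the 36 libraries (columns, 3 per group), as log2 of the normalised count plus 1. MEF columns are bright in all 4 clusters, D3 to D7 columns are intermediate, and iPS and ESC columns are dark except for a few genes such as Hoxc13.

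Most Hox transcripts fell within the first 3 days of reprogramming. From Wt MEFs to Wt D3 cells, 31 members fell and 2 rose at FDR < 0.05, where 70.9% of all genes tested passed and 37.1% passed as lower; 30 of the 31 fell by more than 1 on the log2 scale (all genes 25.4%). The median log2FC of the members was -2.34, against -0.01 over all genes tested, and the summed level dropped to 3445 ± 198 normalised counts, 29.6% of that in MEFs. All 9 Hoxb genes fell, as did 8 of 11 Hoxa, 8 of 9 Hoxc and 6 of 9 Hoxd genes.

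The 4 decreases with the lowest FDR were of paralogues 4 to 9. Hoxb8 (chr11:96281905-96285315), which also sustains immature myeloid cells, had 482, 447 and 444 normalised counts in the 3 MEF Wt libraries and 21.1, 12 and 14.5 in the D3 Wt libraries (log2FC -4.84, SE 0.27, DESeq2 FDR 1.87e-70). Hoxb4, known for expanding blood stem cells, had 602, 669 and 689 normalised counts in the 3 MEF Wt libraries and 132, 143 and 139.6 in the D3 Wt libraries (log2FC -2.24, SE 0.13, DESeq2 FDR 7.63e-64). The groups lay far apart for both genes, and Hoxb8 showed a 28.6-fold decrease. Hoxb9, a gene of the thoracic region, had 744, 671 and 779 normalised counts in the 3 MEF Wt libraries and 118, 76 and 107 in the D3 Wt libraries (log2FC -2.86, SE 0.19, DESeq2 FDR 2.26e-52). Hoxc6, of the lower neck and upper thorax, had 617, 589 and 623 normalised counts in the 3 MEF Wt libraries and 105, 88 and 92.1 in the D3 Wt libraries (log2FC -2.68, SE 0.18, DESeq2 FDR 8.77e-50). Other large decreases were those of Hoxd12 (log2FC -4.09) and Hoxa13 (-3.66), both genes of the distal limb, Hoxb5 (-3.55) and Hoxc8 (-3.50). Hoxd4 went from 10.4, 13.6 and 18 normalised counts to 1.83, 0 and 0, below the level of 3 reads, so its log2FC of -4.49 is uncertain in size. The smallest decrease that passed was that of Hoxc4 (-0.86). The call for Hoxd1 (log2FC -2.36, DESeq2 FDR 0.048) rested on few reads and was lost without D3 Wt replicate 1, D3 Wt replicate 2, D3 Wt replicate 3, MEF Wt replicate 1 or MEF Wt replicate 3 (DESeq2 FDR up to 0.259).

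A few members took another course. Hoxa9 (chr6:52223100-52231089), a factor of posterior trunk and of leukaemia, had 304, 303 and 262 normalised counts in the 3 MEF Wt libraries and 529, 565 and 616 in the D3 Wt libraries (log2FC 0.98, SE 0.23, DESeq2 FDR 4.48e-05). Every D3 library was above every MEF library for this gene. Hoxd13 (chr2:74668310-74671599), which patterns the digits, had 678, 554 and 617 normalised counts in MEFs and 594, 523 and 597 at D3 (log2FC -0.11, SE 0.12, DESeq2 FDR 0.436), with overlapping groups. Its neighbour Hoxd12 kept 5.86% of its MEF mean, while Hoxd13 kept 92.7%. Hoxd9 (log2FC 0.39, DESeq2 FDR 0.121), Hoxa4 (-0.05, 0.949), Hoxc12 (-1.08, 0.154) and Hoxd3 (-1.79, 0.107) did not pass either. At D3 the highest members per kb were therefore Hoxd13 (230.1 ± 16.9) and Hoxa9 (102 ± 7.87), and the highest Hoxb and Hoxc genes were Hoxb4 (53.9 ± 2.19) and Hoxc4 (46.1 ± 5.26).

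**Figure D2:**
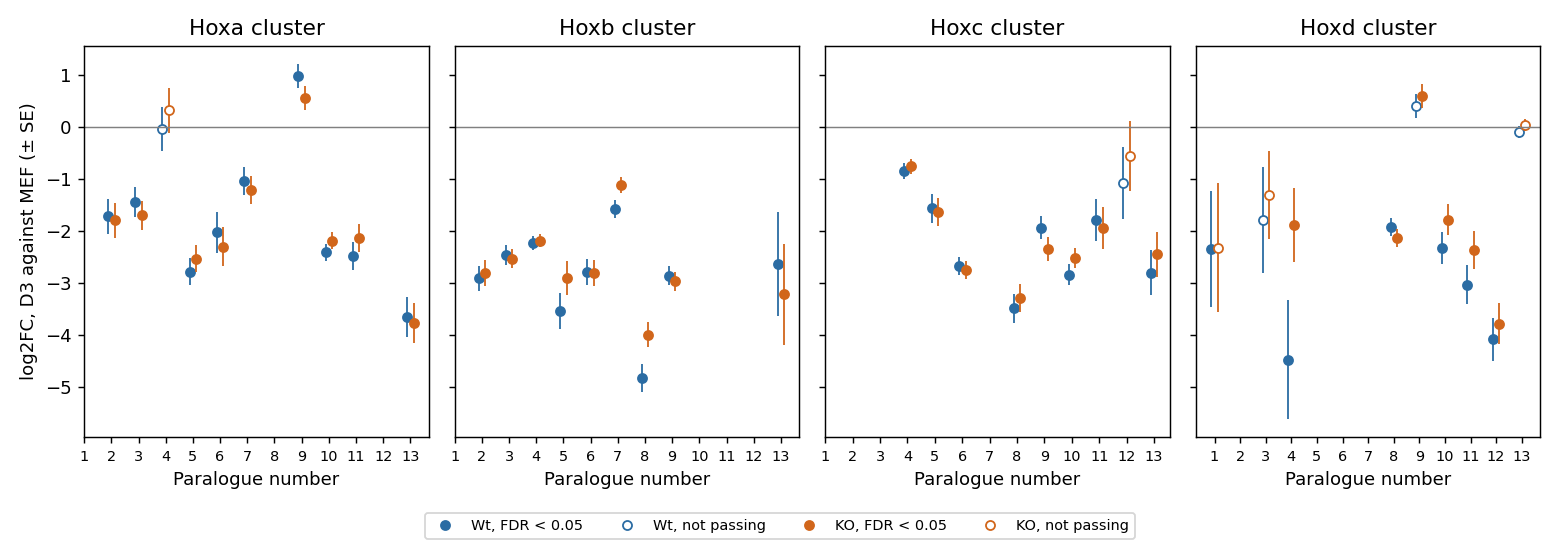
log2FC of D3 against MEF (points, with SE) by paralogue number in each cluster, for Wt (blue) and KO cells (orange), filled where FDR < 0.05. In both genotypes nearly all points lie below 0, apart from those of Hoxa9 and Hoxd9, the latter filled in KO cells alone, while Hoxa4 and Hoxd13 are unfilled near 0.

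KO cells are set beside these values. From KO MEFs to KO D3 cells 30 members fell and 3 rose (71.4% of all genes passed in either direction). The risers included Hoxd9 (log2FC 0.59, SE 0.23, DESeq2 FDR 0.0149) and Hoxa9 (log2FC 0.55, SE 0.23, DESeq2 FDR 0.0226). The calls for Hoxd9 and Hoxa9 in KO cells depended on single libraries. Hoxd9 did not pass without D3 KO replicate 2, MEF KO replicate 2 or MEF KO replicate 3 (DESeq2 FDR up to 0.119). Hoxa9 did not pass without D3 KO replicate 2, D3 KO replicate 3, MEF KO replicate 1 or MEF KO replicate 2 (DESeq2 FDR up to 0.145). The 4 decreases with the lowest FDR were those of Hoxb4 (log2FC -2.19), Hoxb8 (-4.01), Hoxb9 (-2.97) and Hoxc6 (-2.75). Without MEF KO replicate 3, which stood apart, 33 members passed, as with it.

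These are bulk samples, in which fewer cells of a type and less RNA per cell cannot be told apart, and MEFs were not sorted while D3 cells were. The medium differed too: by the study's methods it held FGF2 and heparin for MEFs, and LIF without these for D3 cells. The part of sorting and medium in the fall of Hox transcripts was not tested. The fibroblast markers moved the same way: all 8 were lower at D3 than in MEFs in Wt cells, with summed levels of 419587 to 435126 normalised counts in MEFs and 25092 to 32605 at D3, and none of them was at 0. Of 8 pluripotency markers, 5 were higher and 0 lower, with Dppa5a at 0 at D3. Of the other marker lists, 2 of 5 endoderm, 1 of 1 measured muscle, 1 of 3 endothelial and 1 of 5 measured early mesoderm genes were lower, 1 endothelial and 1 of 5 neural genes were higher, and 0 of 2 measured blood genes passed. The part of these markers in the Hox result was not tested.

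Between D3 and D7 the Hox transcripts of Wt cells did not go on falling. From D3 to D7, 13 members rose and 3 fell, where 23.0% of all genes rose and 19.9% fell, and the summed level went from 3445 ± 198 to 3983 ± 487 normalised counts. Hoxc13, a gene of hair and nail, had 12.8, 6.0 and 17.4 normalised counts at D3, 39.8, 42.3 and 32.3 at D5 and 21.3, 46.3 and 74.1 at D7 (D7 against D3: log2FC 1.96, SE 0.43, DESeq2 FDR 2.87e-05). Hoxd9 (chr2:74697727-74700208) went from 90.8, 81 and 109.5 at D3 to 165, 159 and 185 at D7 (log2FC 0.86, SE 0.21, DESeq2 FDR 1.98e-04), above all 3 MEF libraries (53.9, 78.8 and 79.6). Hoxc13 had fallen by D3 (log2FC -2.81 against MEFs), whereas Hoxd9 had not. Hoxc11 rose from 11.9, 9.0 and 17.4 to 22.3, 44.3 and 45.3 (log2FC 1.54, SE 0.40, DESeq2 FDR 5.05e-04). The members that rose also included Hoxa7, Hoxa10, Hoxb7, Hoxb8, Hoxc12, Hoxd3, Hoxd4, Hoxd8 and Hoxd10, with log2FC from 0.41 (Hoxa10) to 3.48 (Hoxd4, which had 1.83, 0 and 0 normalised counts at D3 and 9.13, 9.06 and 3.09 at D7).

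The 3 members that fell after D3 were of unlike size. Hoxd13 had 594, 523 and 597 normalised counts at D3, 535, 503 and 571 at D5 and 449, 373 and 415 at D7 (D7 against D3: log2FC -0.47, SE 0.12, DESeq2 FDR 3.98e-04). Hoxc5, a gene of the neck, went from 57.8, 67 and 71.7 to 9.13, 39.3 and 23.7 (log2FC -1.45, SE 0.32, DESeq2 FDR 2.48e-05). Hoxd12 went from 10.1, 7.0 and 6.78 to 1.01, 0 and 2.06 (log2FC -2.97, SE 0.93, DESeq2 FDR 0.0044), at or below the level of 3 reads. Consecutive days gave fewer calls. From D3 to D5 3 members rose and 2 fell, with 25.1% of all genes passing. The risers were Hoxc13 (log2FC 1.65, SE 0.43, DESeq2 FDR 0.00124) and Hoxd4, with 4.85, 9.29 and 5.20 at D5 (log2FC 3.33, SE 1.16, DESeq2 FDR 0.0206). Hoxc12 rose as well, with 4.58, 8.0 and 4.85 at D3 and 31.1, 9.29 and 21.9 at D5 (log2FC 1.84, SE 0.66, DESeq2 FDR 0.0237). Those that fell were Hoxc5, with 21.4, 41.3 and 33.3 at D5 (log2FC -1.04, SE 0.30, DESeq2 FDR 0.00433), and Hoxd12, with 1.94, 1.03 and 3.12 (log2FC -1.98, SE 0.72, DESeq2 FDR 0.0271). Among these 5 genes, Hoxc13 and Hoxc5 had the most reads. From D5 to D7 4 members rose and 1, Hoxd13, fell (log2FC -0.38, SE 0.12, DESeq2 FDR 0.0109), with 24.1% of all genes passing. The risers were Hoxd9, from 83.5, 125 and 79.1 at D5 (log2FC 0.83, SE 0.21, DESeq2 FDR 8.91e-04), and Hoxa2, a gene of the second pharyngeal arch, from 18.4, 23.7 and 22.9 to 30.4, 52.4 and 56.6 (log2FC 1.10, SE 0.36, DESeq2 FDR 0.0126). To these came Hoxd11, from 12.6, 10.3 and 14.6 to 30.4, 18.1 and 31.9 (log2FC 1.10, SE 0.42, DESeq2 FDR 0.0407), and Hoxd8, from 63.1, 102 and 65.6 to 105, 106 and 107 (log2FC 0.47, SE 0.18, DESeq2 FDR 0.0439). Without one of the 6 libraries compared, the call was lost in at least 1 fit for Hoxd4, Hoxc12 and Hoxd12 between D3 and D5, for Hoxd13, Hoxa2, Hoxd11 and Hoxd8 between D5 and D7. Between D3 and D7 it was lost for Hoxc12, Hoxa7, Hoxd10, Hoxa10 and Hoxd3 (DESeq2 FDR up to 0.243, for Hoxa10 without D7 Wt replicate 3). Over the whole course 32 of 38 members had their highest Wt mean in MEFs, 4 at D7, 1 at D5 and 1 in iPS.

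**Figure D3:**
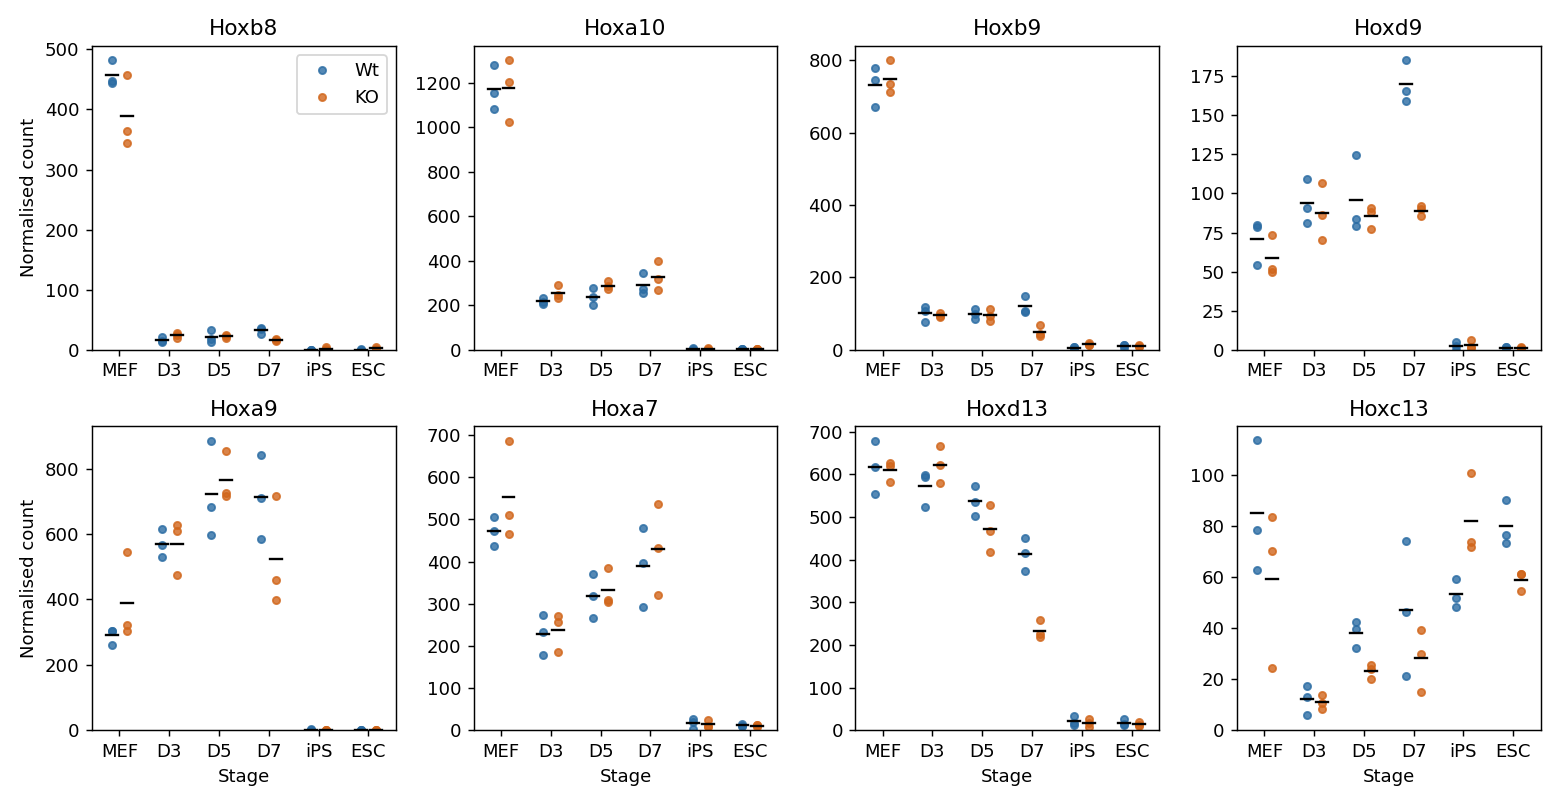
Normalised counts of 8 Hox genes by stage (points are libraries, bars group means) in Wt (blue) and KO cells (orange). Hoxb8, Hoxa10, Hoxa7 and Hoxb9 drop at D3, Hoxa9 rises, Hoxd13 holds until D5, and at D7 the KO libraries of Hoxb9, Hoxd9 and Hoxd13 lie below the Wt libraries.

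At D7, KO cells had less than Wt cells of 13 Hox transcripts of the trunk, limb and posterior body, none of them from the Hoxa cluster in the fit without a replicate block. Of 38 members, 13 were lower in KO cells and 0 higher at FDR < 0.05, where 16.1% of all genes were lower and 13.3% higher; 8 were lower DEGs (FDR < 0.05, log2FC > |1|; all genes 4.42%). By cluster, 4 of 9 Hoxb, 4 of 9 Hoxc, 5 of 9 Hoxd and 0 of 11 Hoxa genes passed. With the replicate number of the libraries as a block, 13 members also passed, 12 of them the same: Hoxa9 passed (log2FC -0.47, DESeq2 FDR 0.042) and Hoxd11 did not (DESeq2 FDR 0.0695), so the counts were 1 of 11 Hoxa and 4 of 9 Hoxd genes. Without the block it was, by paralogue number, 0 of 7 genes from 1 to 3, 5 of 15 from 4 to 8 and 8 of 16 from 9 to 13. Median log2FC was -0.55 for Hoxb, -0.74 for Hoxc, -0.93 for Hoxd and 0.14 for Hoxa, against -0.04 over all genes tested. The libraries of the 2 genotypes did not overlap for 16 members (47.4% of all genes tested), 11 of them among the 13.

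The 4 members with the lowest FDR were 3 group 9 paralogues and the last gene of the Hoxd cluster. Hoxd13 had 449, 373 and 415 normalised counts in Wt and 225, 218 and 258 in KO libraries (log2FC -0.82, SE 0.13, DESeq2 FDR 3.90e-09). Hoxb9 (chr11:96271457-96276595) had 104, 106 and 148 and 42.2, 38.5 and 68.1 (log2FC -1.27, SE 0.21, DESeq2 FDR 7.19e-08), a 2.40-fold difference. In both genes the highest KO library was below the lowest Wt library. Hoxc9 (chr15:102976439-102985099) had 30.4, 31.2 and 36 in Wt and 10.041, 10.5 and 14.5 in KO libraries (log2FC -1.47, SE 0.33, DESeq2 FDR 7.70e-05). Hoxd9 had 165, 159 and 185 and 85.3, 90.2 and 91.7 (log2FC -0.93, SE 0.21, DESeq2 FDR 9.34e-05). Their paralogue Hoxa9 had 586, 711 and 843 and 399, 459 and 717, with overlapping groups and no call without the block (log2FC -0.44, SE 0.23, DESeq2 FDR 0.133). The remaining 9 were Hoxd10, Hoxb6, Hoxb8, Hoxd8, Hoxc10, Hoxc11, Hoxb7, Hoxc8 and Hoxd11, with log2FC from -1.26 (Hoxc11) to -0.55 (Hoxb7). Hoxd10, needed with its neighbours for the hindlimb and its motor neurons, had 35.5, 39.3 and 41.2 in Wt and 15.1, 15.8 and 19.971 in KO libraries (log2FC -1.19, SE 0.33, DESeq2 FDR 0.00244).

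Members outside the 13 had these values. Hoxa7 had 292, 396 and 480.5 normalised counts in Wt and 321, 432 and 536 in KO libraries (log2FC 0.14). The libraries of a genotype spread more widely than the genotypes differed for this gene. Hoxb13, a gene of tail and prostate that is low in fibroblasts, had 4.06, 4.03 and 7.20 in Wt and 12, 16.6 and 15.4 in KO libraries (log2FC 1.53, SE 0.81, DESeq2 FDR 0.149), without overlap. Its Wt libraries, with 4, 4 and 7 reads, were near the level of 3 reads, and its KO libraries held 12, 19 and 17. The summed level of the Hoxa cluster was 2069.9 ± 411 in Wt and 1974 ± 525 in KO cells, and that of the Hoxd cluster 778 ± 50.2 and 431 ± 35.7. Of the whole Hox sum per kb, paralogues 9 to 13 made up 49.2% in Wt and 41.3% in KO cells, against 44.8% in Wt MEFs and 51.3% in Wt D3 cells.

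**Figure D4:**
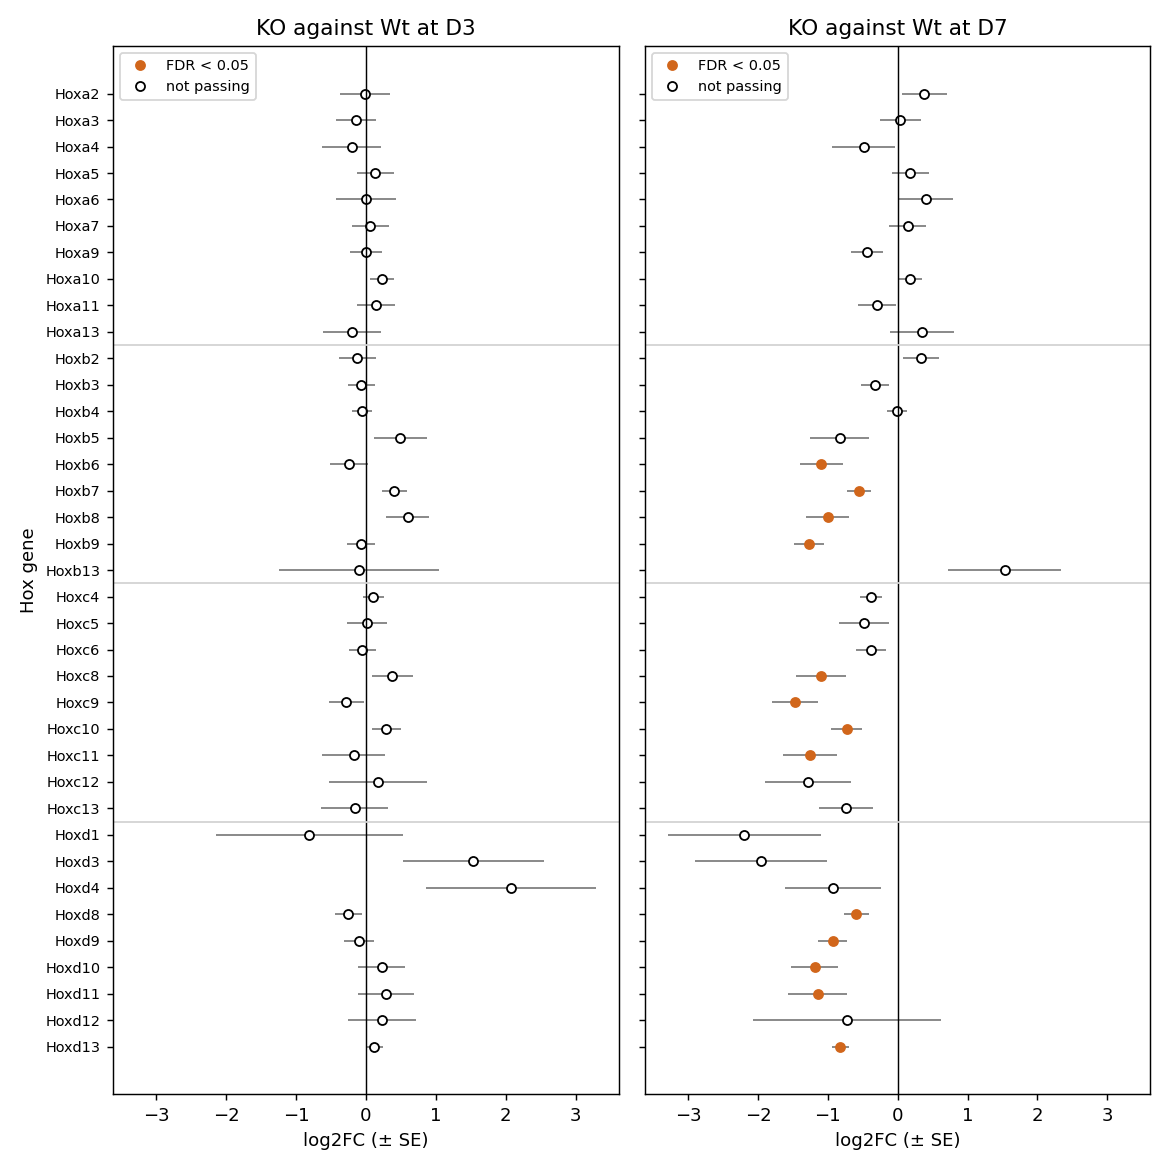
log2FC of KO against Wt (points, with SE) for each of 37 Hox genes at D3 (left) and D7 (right), filled where FDR < 0.05. At D3 no gene passed, and at D7 the 13 filled points all lie below 0 in the Hoxb, Hoxc and Hoxd clusters, while Hoxa points lie on both sides of 0.

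Other markers moved with genotype at D7. In KO cells 4 of 8 fibroblast markers were lower and 0 higher, with summed levels of 6924 to 20923 normalised counts against 21918 to 33399.6 in Wt cells. All 8 pluripotency markers were higher (30237 to 38159.7 against 7363 to 11554), and none of the 16 markers was at 0 in KO cells. Of the further lists, 3 of 5 measured early mesoderm genes were higher, 1 of 5 neural and 1 of 1 measured muscle genes were lower, and 0 of 5 endoderm, 0 of 3 endothelial and 0 of 2 measured blood genes passed. Their part in the Hox values was not tested. Single libraries and the model bear on some calls: Hoxd8 did not pass without D7 KO replicate 2 (DESeq2 FDR 0.059), and Hoxc10 did not pass without D7 Wt replicate 3 (0.0642). Hoxc11 did not pass without D7 KO replicate 1 or D7 Wt replicate 3 (DESeq2 FDR up to 0.0597), nor Hoxc8 without D7 KO replicate 1, D7 KO replicate 2 or D7 Wt replicate 2 (up to 0.096), nor Hoxd11 without D7 KO replicate 2, D7 KO replicate 3, D7 Wt replicate 1 or D7 Wt replicate 3 (up to 0.133). With the 6 D7 libraries fitted alone, 7 members passed in place of 13, and edgeR's quasi-likelihood test called 9.

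For 9 members the KO effect at D7 lay below that at D3. At D3, 0 of the 30 members that DESeq2 gave an adjusted p passed (0.493% of all genes tested). Among all 38 members, 1 had an unadjusted p under 0.05 and edgeR called 0. Tested as a difference of effects, D7 minus D3, 9 members passed, all lower (7.19% of all genes tested), led by Hoxd13 (log2FC -0.94, SE 0.17, DESeq2 FDR 6.52e-06), Hoxb9 (-1.19, 0.29, 0.00134), Hoxb7 (-0.96, 0.24, 0.00195) and Hoxb8 (-1.60, 0.43, 0.00444). These 4 also passed with edgeR, which called 4 members, and with the replicate block, which called 5, these and Hoxc8. At D3 Hoxb8 had 21.1, 12 and 14.5 normalised counts in Wt and 27.6, 25.1 and 19.4 in KO libraries, and at D7 35.5, 35.2 and 25.7 and 16.1, 14.9 and 17.2. The order of the genotypes was thus opposite at the 2 days for this gene, though the difference at D3 did not pass (log2FC 0.60, DESeq2 FDR 0.806). In the KO course from D3 to D7, 11 members fell and 7 rose (26.9% and 28.0% of all genes), beside 3 and 13 in Wt cells. The lowest FDRs among KO decreases were those of Hoxd13 (log2FC -1.41, SE 0.12, DESeq2 FDR 1.46e-28), Hoxc5 (log2FC -1.94), Hoxc8 (-1.95) and Hoxc9 (-1.63). Among increases they included those of Hoxa2 (log2FC 1.16, SE 0.34, DESeq2 FDR 0.00151), Hoxb13 (3.30, from 1.67, 1.79 and 0.972 normalised counts) and Hoxa7 (0.85).

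Elsewhere the genotypes differed in few Hox genes. In MEFs 0 of 38 members passed with DESeq2 (0.0428% of all genes tested), 0 had an unadjusted p under 0.05 and edgeR called 0. The sums were 11639.7 ± 92.1 in Wt and 11432 ± 252 in KO cells. At D5 1 member passed, Hoxc10 (7.15% of all genes). It had 61.2, 77.4 and 52 normalised counts in Wt and 35.3, 36.7 and 45.5 in KO libraries (log2FC -0.69, SE 0.23, DESeq2 FDR 0.0456). The call was lost with edgeR (FDR 0.199) and without D5 KO replicate 1, D5 KO replicate 2, D5 Wt replicate 1 or D5 Wt replicate 2 (DESeq2 FDR up to 0.286). In iPS clones 2 members were higher in KO cells (9.72% of all genes). Hoxb9 had 2.59, 7.75 and 6.49 in Wt and 19, 12.2 and 13.1 in KO clones (log2FC 1.39, SE 0.43, DESeq2 FDR 0.0111). Hoxd8 had 4.32, 0 and 1.86 and 6.99, 7.81 and 6.06 (log2FC 1.76, SE 0.64, DESeq2 FDR 0.0388). Neither gene's groups overlapped (19.6% of all genes), but reads were few. Hoxb9 had 3, 9 and 7 reads in Wt and 19, 14 and 13 in KO clones, and Hoxd8 had 5, 0 and 2 and 7, 9 and 6. Neither passed when the 6 iPS libraries were fitted alone. Hoxb9 also lost its call without iPS KO replicate 1 or iPS Wt replicate 1 (DESeq2 FDR up to 0.0947). Hoxd8 lost it without iPS KO replicate 1, iPS KO replicate 2, iPS Wt replicate 2 or iPS Wt replicate 3 (up to 0.271). In ESC 0 members passed with DESeq2 (10.1% of all genes), 4 had an unadjusted p under 0.05 and edgeR called 0.

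Pluripotent cells had almost no Hox transcripts. The 38 genes summed to 172 ± 31.9 normalised counts in Wt iPS and 190.3 ± 11.3 in Wt ESC, 1.48% and 1.63% of the MEF mean, and 6 and 5 members had a mean of at least 10. From Wt D7 cells to Wt iPS 33 members fell and 0 rose (37.7% of all genes fell), and from Wt MEFs to Wt ESC 34 fell and 0 rose (39.4%). The lowest FDRs from D7 to iPS were those of Hoxd13, with 449, 373 and 415 and 32.8, 16.4 and 13 normalised counts (log2FC -4.30, SE 0.21, DESeq2 FDR 1.32e-94), and Hoxa10, with 254, 273 and 344 and 5.18, 7.75 and 0 (log2FC -6.04, SE 0.40, DESeq2 FDR 2.70e-49). Next came Hoxa7, with 292, 396 and 480.5 and 26.8, 18.9 and 3.71 (log2FC -4.55, SE 0.32, DESeq2 FDR 9.68e-44). From MEFs to ESC they were those of Hoxd13 (log2FC -5.09), Hoxb9 (-6.30), Hoxb4 (-7.68) and Hoxa10 (-9.26), which had 1.0, 2.02 and 2.61 normalised counts in ESC. Of the 38 members, 9 had no read in any Wt iPS clone. Against the floor of 3 reads per library, averaged over the clones, Hoxc6 was at least 26.5-fold lower in Wt iPS than at D7 and at least 229.9-fold lower than in MEFs. Hoxb8 was at least 12.1-fold and 172-fold lower. Hoxb5, Hoxb6 and Hoxc5 had no read in any Wt iPS or KO iPS clone.

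Hoxc13 was the clearest exception. It had 48.4, 59.4 and 52 normalised counts in Wt iPS, 73.9, 101 and 71.7 in KO iPS, 73.3, 90.1 and 76.4 in Wt ESC and 61, 61.3 and 54.7 in KO ESC, so every pluripotent library was above the highest D3 library (17.4). Its level in ESC did not pass as different from MEFs (log2FC -0.09, SE 0.37, DESeq2 FDR 0.832), nor that in iPS from D7 (log2FC 0.17, SE 0.38, DESeq2 FDR 0.686). Per kb it was the highest member in Wt iPS (21.6 ± 2.29) and Wt ESC (32.5 ± 3.63), followed by its neighbour Hoxc12 (11.6 ± 9.51 and 11.8 ± 0.0584). Also above a mean of 10 in Wt ESC were Hoxd13 (17.8 ± 7.21 normalised counts) and Hoxa7 (11.6 ± 3.53). Between Wt iPS and Wt ESC 0 of the 10 members that DESeq2 gave an adjusted p differed (3.2% of all genes tested). Among all 38 members, 3 had an unadjusted p under 0.05 and edgeR called 0. The other 28 members, Hoxc13 among them, were given no adjusted p. DESeq2 filters on the mean over all 36 libraries and not on the level in pluripotent cells, so the missing calls do not show that these members were alike.

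**Figure D5:**
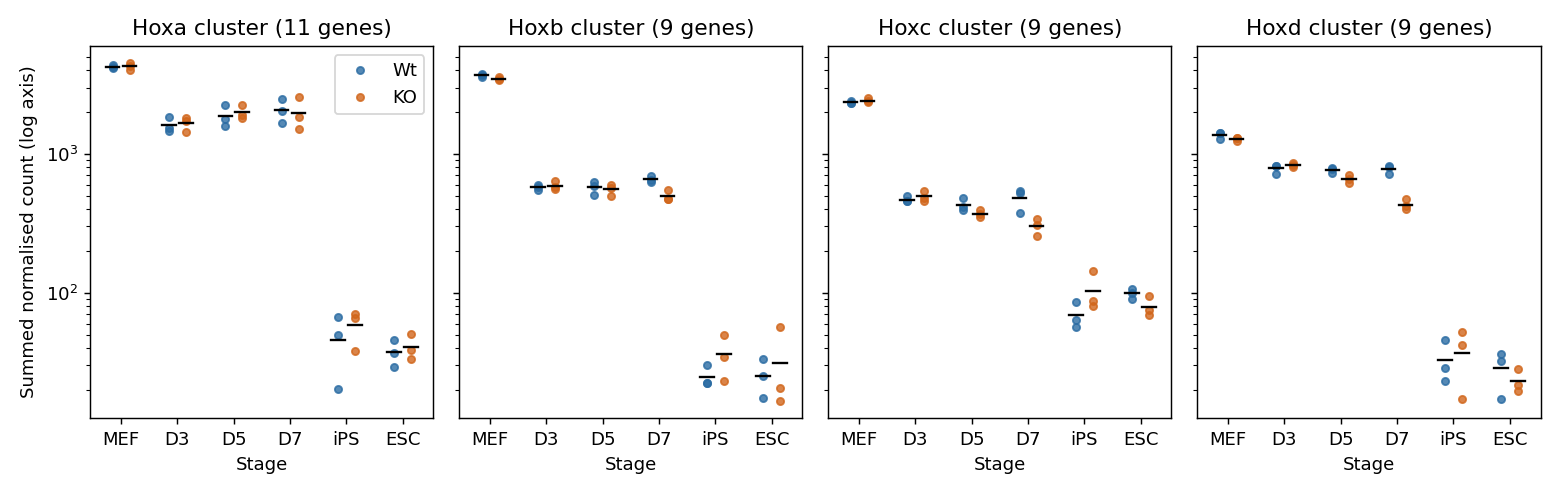
Summed normalised count of each Hox cluster (log axis) by stage; points are libraries, bars group means, Wt in blue and KO in orange. Every cluster drops from MEF to D3 and again to iPS, and at D7 the KO libraries of the Hoxb, Hoxc and Hoxd clusters lie below the Wt libraries, while those of Hoxa overlap.

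Genes that work with the Hox proteins are given by list, with examples chosen after their values were seen and FDR from DESeq2. The TALE homeodomain cofactors, with which Hox proteins bind DNA, fell in 5 and rose in 1 of 9 cases from Wt MEFs to D3, where 33.8% of all genes rose and 37.1% fell (median log2FC -2.89, all genes -0.01), among the former Pknox2 (log2FC -4.89, FDR 5.54e-40) and Meis1 (log2FC -3.11, FDR 1.92e-30). At D7, 1 was higher in KO cells (Pbx2, log2FC 1.28, FDR 2.45e-19) and 2 were lower, among them Meis3 (log2FC -0.79, FDR 2.29e-05), where 13.3% of all genes were higher and 16.1% lower. In either direction 6 of 9 cofactors passed at D3 and 3 of 9 at D7, near the shares over all genes. The same shares of all genes are the background for the lists that follow. Other transcription factors that mark position in mesenchyme fell in 17 of 23 cases by D3 and rose in 2. Among those that fell were Tbx5 of the forelimb (log2FC -3.81, FDR 4.59e-40) and Pitx1 of the hindlimb (log2FC -1.02, FDR 4.76e-05). At D7 5 were lower and 2 higher in KO cells, beside 16.1% and 13.3% of all genes. Pitx1 (log2FC -1.02, FDR 0.00121) and Six2 (log2FC -2.23, FDR 0.006) were among the lower ones. The summed level of the 23 genes went the other way, with 2844 to 3295 normalised counts in KO and 2144 to 2740 in Wt libraries. Of the retinoic acid response genes, 3 of 8 were lower and 1 higher at D3, the latter Cyp26a1, which degrades retinoic acid and had no read in Wt MEFs and 9.17, 4.0 and 13.6 normalised counts at D3. At D7 2 were lower and 1 higher in KO cells, again Cyp26a1 (log2FC 1.54, FDR 1.25e-06).

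Among the genes that control the clusters, the Polycomb list split at D3, with 5 of 14 higher and 8 lower than in MEFs (all genes 33.8% and 37.1%). At D7, 8 were higher and 3 lower in KO cells (all genes 13.3% and 16.1%; median log2FC 0.29, all genes -0.04). Cbx7, the chromobox protein of pluripotent cells, was higher (log2FC 1.46, FDR 8.65e-28), as were Jarid2 (log2FC 1.43, FDR 3.31e-37) and Suz12 (log2FC 1.17, FDR 1.45e-77), while Cbx2 (log2FC -0.55, FDR 4.01e-06) and Cbx8 (log2FC -0.43, FDR 0.0131) were among those that were lower. Of the Trithorax list 3 of 6 were higher and 1 lower, and of the H3K27 demethylases Kdm6a was higher (log2FC 0.49, FDR 7.51e-12) and Kdm6b was not called (log2FC -0.04, FDR 0.913). In Wt cells from MEFs to D3 the Trithorax list had 2 higher and 2 lower genes, and of the demethylases Kdm6a was lower (log2FC -0.38, FDR 5.25e-07).

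Genes next to the clusters are set beside them. Of 12 flanking genes measured, 6 were higher and 4 lower at D3 than in Wt MEFs (all genes 33.8% and 37.1%), and at D7 4 were higher and 3 lower in KO cells (all genes 13.3% and 16.1%). Evx1, a homeobox gene beside Hoxa13, had no read in Wt MEFs and at D7 33.5, 19.1 and 35 normalised counts in Wt and 45.2, 106 and 86.2 in KO libraries (log2FC 1.44, FDR 0.00324). Lnpk and Mtx2, beside the Hoxd cluster, were higher at D3 (log2FC 1.76, FDR 3.19e-70 and log2FC 0.90, FDR 9.75e-22) and lower in KO cells at D7 (log2FC -0.41, FDR 1.06e-04 and log2FC -0.29, FDR 0.00673). Noncoding transcripts of the clusters fell in 5 and rose in 0 of 9 cases at D3, among them Hoxb5os, with 59.1, 48.5 and 64.7 normalised counts in Wt MEFs and 0, 1.0 and 0 at D3 (FDR 9.27e-08). At D7 1 was higher and 0 lower in KO cells: Halr1, a long noncoding RNA next to the Hoxa cluster, had 10.1, 16.1 and 13.4 normalised counts in Wt and 34.1, 71.8 and 67.2 in KO libraries (log2FC 2.13, FDR 6.45e-05). By stage it ran opposite to most Hox genes, with 0, 3.03 and 2.12 in Wt MEFs and 677, 606 and 580.2 in Wt ESC (log2FC 8.41, FDR 1.10e-23).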

How the data were processed

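Polyadenylated RNA of 36 libraries was sequenced in single reads of 75 bases with a stranded kit. Per the study's methods, the authors removed adapters with Cutadapt, mapped reads to GRCm38 with STAR and counted them per gene with Rsubread. Versions, annotation release and the strand setting are not given in the sources used here. The authors deposited raw counts per gene and normalised counts, a signal in which the counts of a library are divided by 1 DESeq2 size factor. Gene names came from a deposited comparison table, whose fold changes and p-values, like those of the other comparison tables and the batch-corrected values, were not used.

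Counts of all 21442 genes were fitted in DESeq2 1.42.0 (R 4.3.3, median ratio scaling, Wald test) as 1 factor of 12 groups, and p-values were adjusted over all genes (Benjamini-Hochberg). Members passed at FDR < 0.05, and DEGs also had log2FC > |1|. In each comparison the 4 members with the lowest FDR in each direction are given in full, apart from a few genes not reported here. Lengths and positions came from GENCODE M21 and promoter windows from RefSeq, with GRCm38.p6 named in the submitters' processing notes. Alternatives were edgeR 4.0.16 (quasi-likelihood, TMM), TMM scaling in DESeq2, a filter of 10 counts in 3 libraries, fits of the compared groups alone, a replicate block, leaving out each library, and, for levels, library totals (CPM) and unshared exon length. The members and gene lists were chosen with earlier results of these data known.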

Additional observations from a re-analysis of the deposited data

Results flagged for a closer look

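For 9 Hox genes the difference between KO and Wt cells was not the same at D7 as at D3, by a test of the difference of the log2FC values themselves (D7 minus D3). The values were Hoxd13 (-0.94, DESeq2 FDR 6.52e-06), Hoxb9 (-1.19, DESeq2 FDR 0.00134), Hoxb7 (-0.96, DESeq2 FDR 0.00195), Hoxb8 (-1.60, DESeq2 FDR 0.00444), Hoxc10 (-1.02, DESeq2 FDR 0.0119), Hoxc8 (-1.47, DESeq2 FDR 0.0164), Hoxd10 (-1.41, DESeq2 FDR 0.0275), Hoxc9 (-1.19, DESeq2 FDR 0.0354) and Hoxd9 (-0.83, DESeq2 FDR 0.0456). In each case the KO effect at D7 was the lower one, and 7.19% of all genes tested passed in that direction. With edgeR 4 of the 9 passed (Hoxd13, Hoxb9, Hoxb7 and Hoxb8), and with the replicate block 5 (these and Hoxc8). When each of the 12 libraries of D3 and D7 was left out in turn, the call was lost in 2 for Hoxc10, 4 for Hoxc8, 6 for Hoxd10, 6 for Hoxc9 and 10 for Hoxd9, and in none for Hoxd13, Hoxb9, Hoxb7 and Hoxb8.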

How the results depend on the processing

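The direction of change was compared for members that passed, and every alternative kept it. For D3 against MEF in Wt and in KO cells, and for iPS against D7 and ESC against MEF in Wt cells, only the 4 with the lowest FDR in each direction were compared. Of the fits that left out 1 library, that with the highest FDR was used. Members that did not pass were not part of this comparison. The counts of members passing changed by more than 1.5 times in few cases, whose causes were not tested beyond the smaller number of libraries in some fits. The 1 member of KO against Wt at D5 became 0 with edgeR, with the filter on low counts, with the D5 libraries alone and with the replicate block. With only the compared groups in the fit, the 13 members of KO against Wt at D7 became 7, the 2 in iPS became 0 and the 5 of D7 against D5 in Wt cells became 3. With edgeR the latter became 2, and the 9 members of the difference between the KO effects at D7 and D3 became 4. Neither the labels nor the methods say what a shared replicate number means, and at no stage did all 3 same-numbered pairs of Wt and KO libraries correlate above 0.1 over all genes, so the numbers were not taken to pair the samples: the correlation of deviations from the group means between same-numbered Wt and KO libraries ran from 0.0752 to 0.287 at D3, 0.0593 to 0.167 at D5, 0.0838 to 0.230 at D7, -0.0371 to 0.0244 in MEFs, -0.120 to 0.224 in iPS and -0.0236 to 0.0096 in ESC. Among the Hox genes alone all 3 pairs were above 0.1 at D3 (0.144 to 0.288) and D7 (0.326 to 0.687), and at both days each of the 6 libraries correlated best with its own number, as over all genes at D5 and D7, a hint of pairing from the data and not the design. With the replicate block 13 members passed at D7, 12 of them the same (Hoxa9 was gained and Hoxd11 lost), the difference between the effects at D7 and D3 passed for 5 members in place of 9, and no other count of calls moved by over 1.5 times apart from that at D5. For KO against Wt and for the difference between the effects, the block was fitted within each stage. For comparisons of stages, each replicate number had an effect shared by all stages, a link that nothing in the labels gives. This shared block also ended the calls for Hoxd1 (D3 against MEF), Hoxa10 (D7 against D3) and Hoxd8 (D7 against D5) in Wt cells, and Hoxa2 passed for D7 against D3. These changes therefore do not test pairing.

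Leaving out 1 library at a time gave 0 to 0 members for KO against Wt in MEFs and at D3, 0 to 1 at D5, 10 to 15 at D7, 0 to 3 in iPS and 0 to 1 in ESC. In Wt cells the ranges were 32 to 33 for D3 against MEF, 2 to 5 for D5 against D3, 2 to 4 for D7 against D5, 13 to 16 for D7 against D3, 33 to 34 for iPS against D7, 0 to 0 for ESC against iPS and 34 to 34 for ESC against MEF. They were 30 to 33 for D3 against MEF and 15 to 19 for D7 against D3 in KO cells, and 5 to 9 for the difference between the effects. The counts moved by over 1.5 times without D3 Wt replicate 1 or D5 Wt replicates 1 or 3 (D5 against D3), without D5 Wt replicates 1 or 3 or any D7 Wt library (D7 against D5), without D5 KO or Wt replicates 1 or 2 (KO against Wt at D5), without iPS KO replicates 1 or 2 or iPS Wt replicates 2 or 3 (iPS), without ESC Wt replicate 3 (ESC), and without D3 KO replicate 2, D7 KO replicates 1 or 2 or D7 Wt replicate 3 (difference between the effects).

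Scaled by library totals (CPM), the summed Hox level as a share of that in Wt MEFs was 31.8% in Wt D3 (29.6% in normalised counts), 38.6% in D7 (34.2%) and 1.80% in ESC (1.63%). With exon bases shared with other genes left out, paralogues 9 to 13 made up 39.7% of the sum per kb in D7 KO cells (41.3% otherwise) and 73.5% in Wt ESC (75.9%). With TMM scaling the median log2FC of all genes in ESC against MEF moved by over 0.1, from 0.05 to 0.16. Few reads limit what can be seen in pluripotent cells, where a member without a read could still hold up to 2.58 to 3.04 normalised counts, depending on the library. The library preparation batches that the study's methods mention are not given per sample, so their part was not tested.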
